A study of Mus musculus with 4 samples.

Results

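Genes of glucose uptake and glycolysis were followed over 4 mouse microarrays, 10 in all: the glucose transporters Slc2a1 and Slc2a3, the hexokinases Hk1 and Hk2, the phosphofructokinases Pfkl and Pfkp, the phosphoglycerate kinase Pgk1, the pyruvate kinase Pkm2 (Pkm in RefSeq), and the lactate dehydrogenases Ldha and Ldhb. They were picked by gene name, with earlier results of these data known, and are 10 of the 29353 named genes on the array. Their names were carried by 18 of its 61307 probes, 6 of them for Hk1, 2 each for Pfkp, Pgk1 and Ldha, and 1 each for the other genes. The probe of each gene that was brightest on average stands for it below. All 10 of these probes were well above background, and none was saturated, on all 4 arrays.

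The arrays held RNA from cells sorted from the bone marrow of C57BL6/J mice that were 7 weeks old. LSK cells (lineage-negative, Sca-1-positive and c-kit-positive) are the marrow fraction that contains the blood stem cells and their early progeny, and the other sorted fraction was CD45-negative, meant to hold the stromal cells around them. At day 10 both fractions came from mice with the CD45.1 form of the leukocyte antigen CD45, which had received 700 cGy of radiation and then 30000 LSK cells of donors with the CD45.2 form. At day 0 both came from healthy mice that had neither treatment. The labels also write CD45.1-negative for the stromal sort, so the form that the antibody recognised is not certain. The mice that gave each RNA, and whether several were pooled, are not described in the labels. Each of the 4 groups is 1 array. No difference below therefore has a test or a spread between mice, and 2-fold is used only as a size.

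Glycolysis splits glucose into pyruvate and yields ATP without oxygen. Glucose enters through transporters of the Slc2a family, hexokinases trap it by phosphorylation, phosphofructokinase commits it to the pathway, phosphoglycerate kinase and pyruvate kinase make the ATP, and lactate dehydrogenase turns pyruvate into lactate. Blood stem cells are known for their reliance on glycolysis in a marrow low in oxygen, and hypoxia-inducible factors, which bind promoters and enhancers at the core letters ACGTG or GCGTG, are known activators of many of these genes. The letters CACGTG, which contain ACGTG, are also the E-box read by Myc.

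The bases just upstream of the transcription starts are shown for the genes at least 2-fold apart between the days in the CD45-negative cells, because these carry the main difference described below. RefSeq windows of 250 bases (build GRCm38.p6) were found for 9 of the 10 genes, 12 windows in all, and Slc2a3 was not matched. Hk1, Pkm2 and Ldha have 2 windows each, of which the one with a match of either core motif, or the one with ACGTG, is shown. Capitals mark ACGTG, or CACGT where it lies on the other strand, and CACGTG where the 2 overlap. Each sequence runs 5′ to 3′ on the strand of the gene and ends at the base before the start.
Slc2a1, chr4:119108495-119108744, plus strand: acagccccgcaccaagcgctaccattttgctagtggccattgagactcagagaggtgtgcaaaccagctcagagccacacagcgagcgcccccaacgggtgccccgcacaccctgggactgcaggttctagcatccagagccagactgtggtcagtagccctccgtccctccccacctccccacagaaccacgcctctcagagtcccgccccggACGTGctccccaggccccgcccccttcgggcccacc
Hk1, chr10:62340422-62340671, minus strand: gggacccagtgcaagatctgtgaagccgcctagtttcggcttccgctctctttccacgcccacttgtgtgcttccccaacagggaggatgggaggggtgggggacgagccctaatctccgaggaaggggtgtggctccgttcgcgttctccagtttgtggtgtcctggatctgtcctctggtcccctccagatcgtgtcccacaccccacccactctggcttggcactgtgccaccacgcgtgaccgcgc
Hk2, chr6:82774455-82774704, minus strand: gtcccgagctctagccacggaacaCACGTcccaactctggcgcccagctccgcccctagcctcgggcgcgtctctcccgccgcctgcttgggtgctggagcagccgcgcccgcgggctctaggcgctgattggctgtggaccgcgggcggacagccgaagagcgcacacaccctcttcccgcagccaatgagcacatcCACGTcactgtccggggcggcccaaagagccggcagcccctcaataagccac
Pfkp, chr13:6648772-6649021, minus strand: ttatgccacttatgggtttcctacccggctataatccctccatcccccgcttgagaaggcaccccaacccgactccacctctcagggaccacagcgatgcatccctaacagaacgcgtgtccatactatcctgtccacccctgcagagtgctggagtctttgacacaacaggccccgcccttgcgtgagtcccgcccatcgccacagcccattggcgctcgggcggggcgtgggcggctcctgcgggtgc
Pgk1, chrX:106186850-106187099, plus strand: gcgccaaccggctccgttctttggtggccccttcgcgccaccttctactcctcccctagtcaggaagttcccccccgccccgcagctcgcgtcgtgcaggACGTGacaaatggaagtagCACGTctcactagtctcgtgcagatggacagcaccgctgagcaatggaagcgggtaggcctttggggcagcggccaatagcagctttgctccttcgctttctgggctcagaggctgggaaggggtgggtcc
Pkm2, chr9:59656977-59657226, plus strand: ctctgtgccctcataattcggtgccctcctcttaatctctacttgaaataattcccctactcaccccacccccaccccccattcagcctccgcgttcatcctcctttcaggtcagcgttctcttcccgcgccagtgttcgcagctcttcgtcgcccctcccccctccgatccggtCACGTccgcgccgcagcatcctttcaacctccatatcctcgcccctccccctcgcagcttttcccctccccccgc
Ldha, chr7:46845554-46845803, plus strand: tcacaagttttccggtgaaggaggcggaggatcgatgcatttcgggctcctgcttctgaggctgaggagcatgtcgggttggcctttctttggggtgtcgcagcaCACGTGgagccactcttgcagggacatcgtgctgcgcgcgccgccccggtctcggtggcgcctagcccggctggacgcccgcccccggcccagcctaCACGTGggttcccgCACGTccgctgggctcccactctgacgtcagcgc

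ACGTG, searched on both strands, stood in 5 of the 12 windows, 1 window each of Slc2a1, Hk2, Pgk1, Pkm2 and Ldha. Its first base lay 36 bases before the start in Slc2a1, 226 and 52 in Hk2, 150 and 131 in Pgk1, and 75 in the Pkm2 window. The Ldha window held 5 overlapping or single matches at 145, 144, 48, 47 and 34 bases, and CACGTG at 145 and 48. No ACGTG was in the windows of Hk1, Pfkl, Pfkp and Ldhb, while GCGTG was in 6 windows, those of Slc2a1, Hk1, Pfkl, Pfkp, Ldhb and the second of Ldha. Of all 32851 mouse windows of this length, 16.57% held ACGTG, 28.16% GCGTG and 6.021% CACGTG. The share with ACGTG was 24.96% among the 10362 windows with at least 13 CpG, the lowest number in the 5 windows that held it, which had up to 25. That cut was thus taken from the windows with the motif. The other Hk1 window (1 CpG) and the second Ldha window (9 CpG) lie below it, so this share and the 5 of 12 are not like for like. The 12 windows had a median of 15 CpG, beside 6 over all windows. No share at like CpG was taken for GCGTG or CACGTG. A match describes the letters only and says nothing of binding in these cells.

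In the CD45-negative cells 7 of the 10 genes were at least 2-fold higher at day 10 than at day 0, and 1, Hk1, was at least 2-fold lower. The 7 were both transporters, Hk2, Pfkp, Pgk1, Pkm2 and Ldha, by 2.79-fold to 6.09-fold. With the mean of a gene's probes they were 6, since the 2 Pfkp probes disagree. With the spike-in scale described below all 10 were 2-fold higher, Hk1 included, but so were 13347 of the 14161 genes measured. In the LSK cells none of the 10 was 2-fold apart. Over all 14161 genes measured in the CD45-negative cells on both days, 24.1% lay 2-fold or more above 0 and 17.2% 2-fold or more below. In LSK cells these shares were 1.47% and 2.72% of 16084 genes. The median difference of the 10 genes was 1.64 log2 units in CD45-negative cells, beside 0.22 over all genes, and -0.14 in LSK cells, beside 0.00 over all genes. Pfkl and Ldhb were the 2 genes within 2-fold in both populations.

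**Figure D1:**
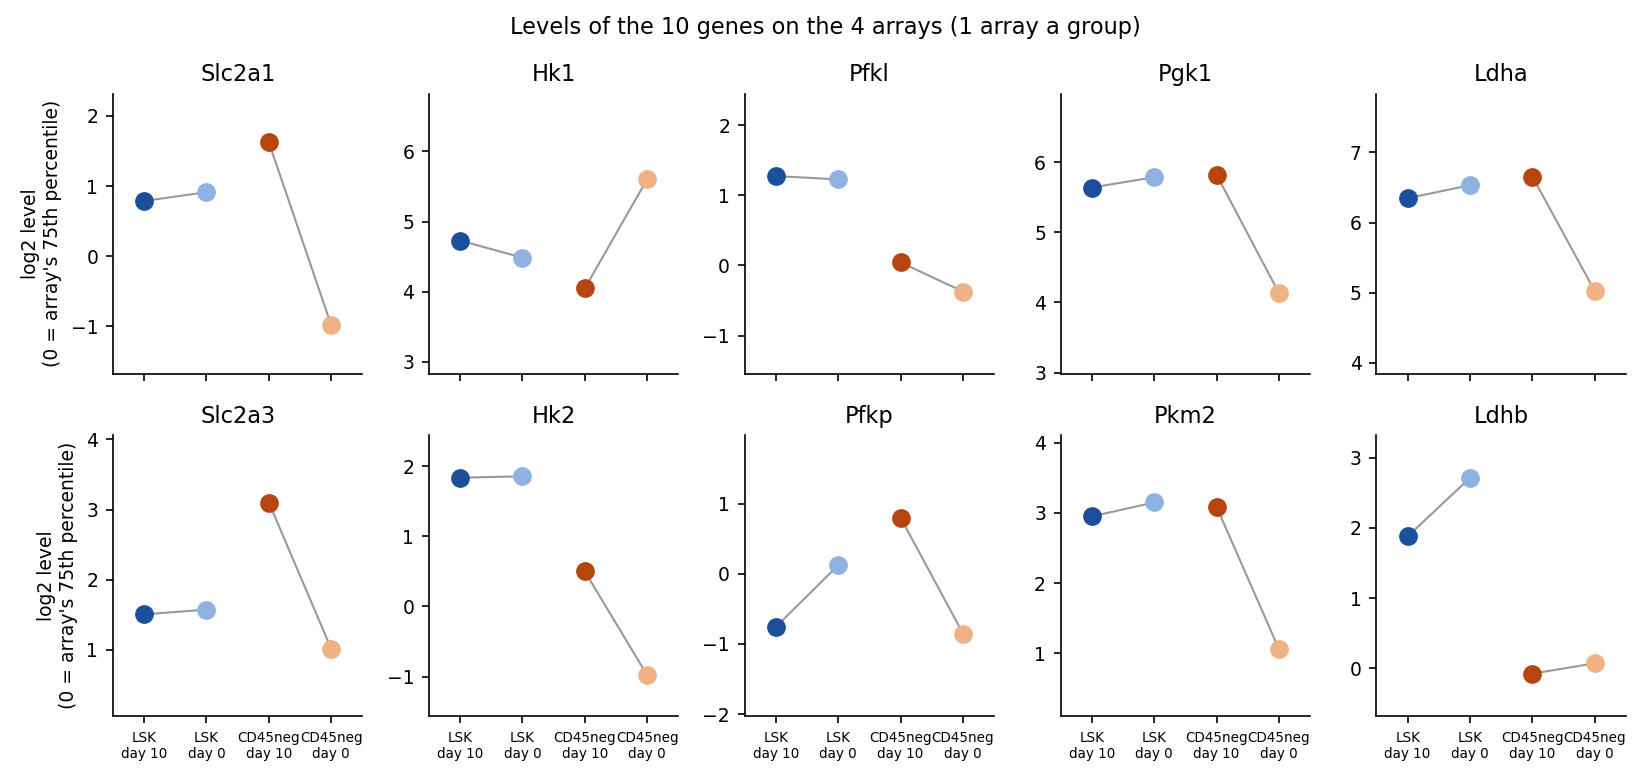
Level of each of the 10 genes (vertical axis, log2 signal relative to the 75th percentile of its array, every panel spanning the same number of units) on the 4 arrays (horizontal axis, 1 point an array, with lines joining the 2 days of a population). The CD45-negative array of day 0 is the lowest of the 4 for 8 genes, the highest for Hk1, and close to the day 10 array for Ldhb.

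All levels are log2 values of the processed signal relative to the 75th percentile of their own array, so 0 is that percentile. A level is compared between arrays for 1 gene, never between genes. Between 47.63% and 56.61% of probes were well above background on an array, fewest on the CD45-negative array of day 0. The differences between arrays depend on how their scales are set against each other. Setting them by 5 spike-in control probes instead added 3.25 log2 units to every day difference in the CD45-negative cells, and moved the median of all genes there to 3.48. A lower value of less than that size in these cells, Hk1 included, then becomes a higher one. The order of the 10 genes within a comparison is not touched by such a shift. Replicate spots within an array give differences between the days an SD of 0.264 in CD45-negative and 0.228 in LSK cells. This covers technical error only.

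Of the transporters, Slc2a1 encodes GLUT1, the widely expressed basal transporter, and Slc2a3 encodes GLUT3, which has a high affinity for glucose. Slc2a1 stood at 1.62 in CD45-negative cells at day 10 and at -0.98 at day 0, and at 0.79 in LSK cells at day 10 and 0.91 at day 0. It was thus 6.09-fold higher at day 10 in the CD45-negative cells (difference 2.61), the widest gap between the days among the 10 genes and the percentile 98.66 of all genes measured and its LSK difference was -0.13, within the spot SD. Slc2a3 stood at 3.10 in CD45-negative cells at day 10 and 1.01 at day 0, against 1.51 and 1.57 in LSK cells. Its day difference was 2.09 (4.24-fold) in CD45-negative cells, and -0.07, less than the spot SD, in LSK cells. Slc2a3 minus Slc2a1 in the CD45-negative day difference was -0.52.

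The hexokinases went opposite ways in the CD45-negative cells. Hk1 is the housekeeping hexokinase of many tissues, and red cells depend on it for glycolysis. It stood at 4.05 in CD45-negative cells at day 10 and 5.60 at day 0, and at 4.73 in LSK cells at day 10 and 4.49 at day 0. In CD45-negative cells it was 2.94-fold lower at day 10 (difference -1.56, but 1.70 with the spike-in scale). In LSK cells the difference was 0.24, near the spot SD. Hk2, the inducible hexokinase, stood at 0.50 in CD45-negative cells at day 10 and -0.98 at day 0. It was 2.79-fold higher there (difference 1.48), while in LSK cells it stood at 1.83 at day 10 and 1.85 at day 0, a difference of -0.02. The difference of Hk2 exceeded that of Hk1 by 3.03 log2 units (8.20-fold) in CD45-negative cells, a contrast in which any shift of a whole array cancels. In LSK cells the same contrast was -0.26. The Hk2 probe is listed with 2 predicted transcripts as well. Whether these belong to Hk2 or to another gene was not examined, so its signal may not be of Hk2 alone.

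Hk1 had the most probes, and 3 of them are shown because they do not overlap and carry the direction of the brightest one in CD45-negative cells.
Hk1, probe 2: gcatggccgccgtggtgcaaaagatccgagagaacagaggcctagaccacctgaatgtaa
Hk1, probe 3: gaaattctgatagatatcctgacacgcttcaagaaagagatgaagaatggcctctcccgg
Hk1, probe 4: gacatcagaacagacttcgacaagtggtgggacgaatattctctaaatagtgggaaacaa

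These probes gave CD45-negative differences of -1.76, -2.03 and -2.24, and the brightest and the fifth gave -1.56 and -1.74. All 5 were above background on all 4 arrays, and all 5 were lower at day 10 on the 75th-percentile scale, while with the spike-in scale all 5 would be higher. In LSK cells the same 5 probes ranged from -0.15 to 0.69, with 3 above 0 and 2 below. The sixth was not well above background on any array.

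**Figure D2:**
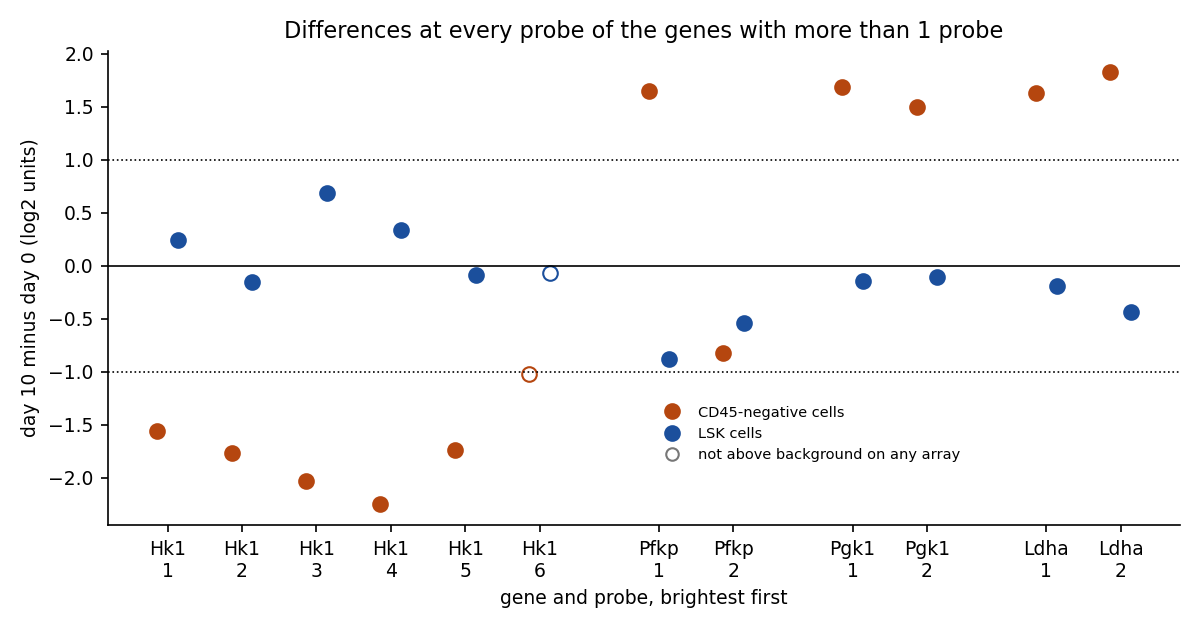
Day 10 minus day 0 (vertical axis, log2 units) at every probe (horizontal axis) of the 4 genes with more than 1 probe, in CD45-negative cells (orange, left) and LSK cells (blue, right). Dotted lines mark 2-fold, and open circles are the Hk1 probe that was not well above background. The 5 other Hk1 probes lie at -1.56 or lower in CD45-negative cells on this scale, although a spike-in scale adds 3.25 to each, and the 2 Pfkp probes lie on opposite sides of 0.

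The phosphofructokinases make the committed step. Pfkl, the liver-type subunit, stood at 0.04 in CD45-negative cells at day 10 and -0.37 at day 0, and at 1.27 and 1.23 in LSK cells. It was within 2-fold between the days in both, with differences of 0.42 and 0.05. Pfkp, the platelet-type subunit, stood at 0.80 in CD45-negative cells at day 10 and -0.85 at day 0, and at -0.76 in LSK cells at day 10 and 0.12 at day 0. It was 3.14-fold higher at day 10 in CD45-negative cells (1.65) and 1.84-fold lower in LSK cells (-0.88, the percentile 3.432 among all genes). This call rests on 1 probe. The second Pfkp probe gave -0.82 in CD45-negative cells and -0.53 in LSK cells, and the mean of both probes gave 0.41 in CD45-negative cells. The direction of Pfkp in the CD45-negative cells is therefore not settled by these probes, whereas both were lower in LSK cells.

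The 2 ATP-yielding enzymes were close to each other. Pgk1 stood at 5.82 in CD45-negative cells at day 10 and 4.13 at day 0, with 5.64 and 5.78 in LSK cells. Pkm2 stood at 3.09 in CD45-negative cells at day 10 and 1.06 at day 0, with 2.95 and 3.15 in LSK cells. For both genes the CD45-negative array of day 0 was the low one and the other 3 arrays lay close together. The day differences were 1.69 (3.22-fold) for Pgk1 and 2.03 (4.08-fold) for Pkm2 in CD45-negative cells, and -0.15 and -0.20 in LSK cells. The second Pgk1 probe, which shares 38 bases with the first, gave 1.5. Both Pgk1 probes are also listed with 2 predicted transcripts. The array name Pkm2 does not tell the 2 splice forms of the Pkm gene apart here.

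Lactate dehydrogenase is built from 2 kinds of subunit, Ldha, which favours making lactate, and Ldhb, which is usual in oxidative tissues. Ldha stood at 6.66 in CD45-negative cells at day 10 and 5.02 at day 0, and at 6.35 and 6.53 in LSK cells. Its CD45-negative difference was 1.63 (3.10-fold) at the brighter probe, which is also listed with 1 predicted transcript, and 1.83 at the other. Ldhb stood at -0.08 in CD45-negative cells at day 10 and 0.07 at day 0, a difference of -0.15, within the spot SD. In LSK cells it stood at 1.88 at day 10 and 2.71 at day 0, and was 1.78-fold lower (-0.84, the percentile 3.867). Ldha exceeded Ldhb in its day difference by 1.78 log2 units in CD45-negative cells and by 0.65 in LSK cells. Ldhb and Pfkp were the 2 genes with the largest LSK differences, both under 2-fold, and with the spike-in scale both passed it, at -1.02 and -1.07.

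**Figure D3:**
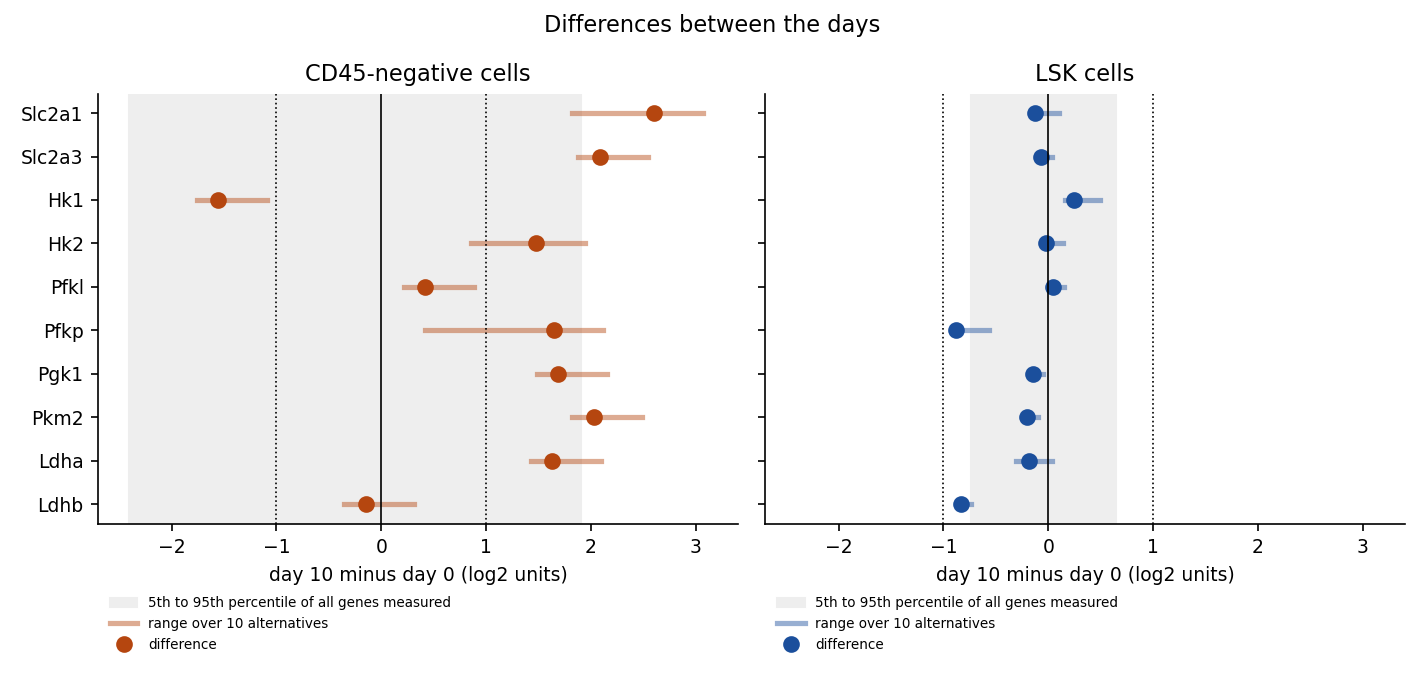
Day 10 minus day 0 (horizontal axis, log2 units) of the 10 genes in CD45-negative cells (left) and LSK cells (right). Points are the values on the 75th-percentile scale, bars the range over the 10 alternatives other than the spike-in scale, dotted lines 2-fold, and the grey band spans the 5th to the 95th percentile of all genes measured. Slc2a1, Slc2a3 and Pkm2 lie above the band in CD45-negative cells and Pfkp and Ldhb below it in LSK cells, and Hk1 is the gene below -1, which the spike-in scale would place at 1.70.

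Setting the 2 populations against each other at each day uses the same 4 arrays. At day 10, 3 of the 10 genes were at least 2-fold higher in LSK than in CD45-negative cells and 2 at least 2-fold lower, where 11.3% and 12.9% of all 15468 genes measured were. At day 0, 7 lay above 2-fold and 1 below, where 22.2% and 17.8% of 14302 genes did. The median of the 10 genes was -0.16 at day 10, beside -0.02 over all genes, and 1.62 at day 0, beside 0.10. At day 10 Pgk1, Pkm2 and Ldha differed between LSK and CD45-negative cells by -0.18, -0.14 and -0.31 (-1.875, -1.830 and -2.001 with the spike-in scale). At day 0 they differed by 1.65, 2.09 and 1.51.

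Ldhb, Hk2 and Pfkl were the genes at least 2-fold higher in LSK cells on both days, although with the spike-in scale Ldhb, Hk2 and Pfkl stood at 0.26, -0.36 and -0.46 at day 10. A median shift also ended the day 10 calls of Hk2 (0.92) and Pfkl (0.82), leaving 1 gene 2-fold higher and 3 lower. Over all genes 842 were then 2-fold higher and 3842 lower. Their LSK minus CD45-negative differences were 1.96 and 2.64 for Ldhb, 1.34 and 2.83 for Hk2, and 1.23 and 1.60 for Pfkl, day 10 before day 0. Slc2a3 (-1.59) and Pfkp (-1.55) were more than 2-fold lower in LSK cells at day 10, and their values at day 0 were 0.56 and 0.97. For Pfkp the call at day 10 rests on the brighter probe, since the other gave -0.09 and their mean -0.82. At day 0 the other Pfkp probe gave -0.37 and the mean of both 0.30. Slc2a1 was -0.84 at day 10 and 1.90 at day 0. Hk1 ran the other way at its brightest probe, with 0.68 at day 10 and -1.12 at day 0. Its probes 2 to 5 gave 1.17, 1.24, 1.83 and -0.42 at day 10, and -0.44, -1.48, -0.75 and -2.07 at day 0. With the spike-in scale both signs of the brightest probe turned, to -1.01 at day 10 and 0.63 at day 0.

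**Figure D4:**
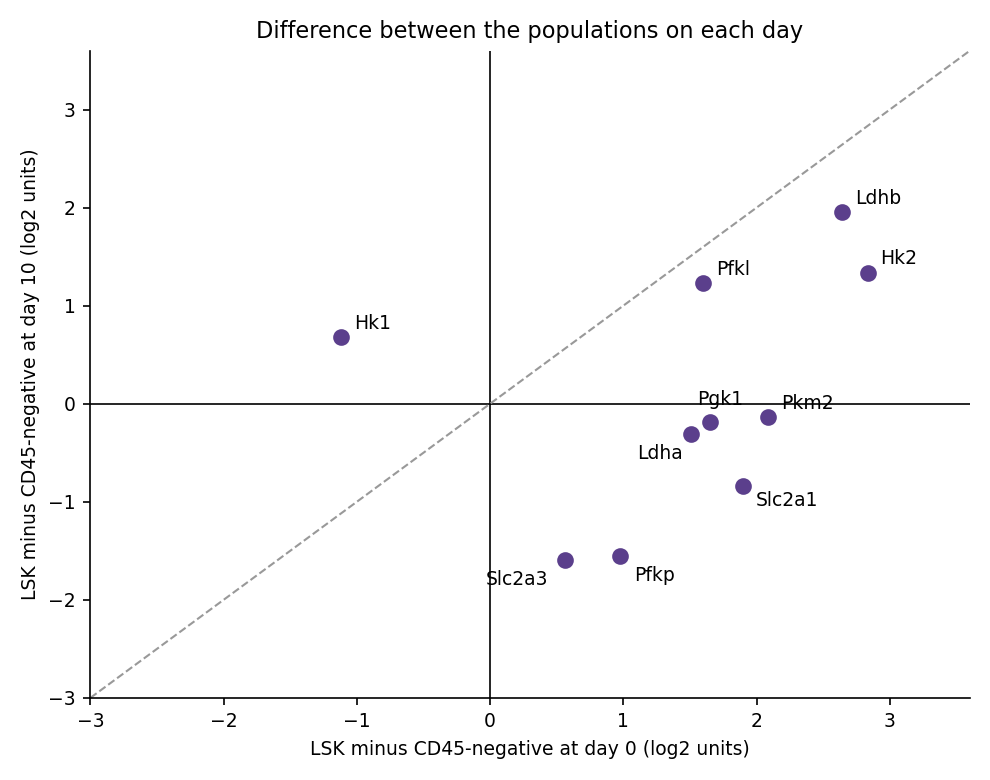
LSK minus CD45-negative (log2 units) for each of the 10 genes at day 10 (vertical axis) and day 0 (horizontal axis). On the dashed line a gene differs equally on both days. All genes but Hk1 lie below the line, and on this scale Ldhb, Hk2 and Pfkl are the 3 above 1 on both axes (with the spike-in scale Hk2 and Pfkl fall below 0 and Ldhb to 0.26 at day 10, and Hk1 moves to -1.01 at day 10 and 0.63 at day 0).

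The other enzymes of glycolysis were less uniform. Of 19 listed, 14 were measured in the CD45-negative cells on both days, and at day 10 5 of these passed 2-fold upwards and 3 downwards (median 0.75). The higher ones were the phosphoglycerate mutase Pgam1 (1.72), the enolase Eno1 (1.66), the ADP-dependent glucokinase Adpgk (1.65), the hexokinase Hk3 (1.42) and the glucose-phosphate isomerase Gpi1 (1.14). Gapdh (0.89), the triose-phosphate isomerase Tpi1 (0.85), the aldolase Aldoa (0.66) and the pyruvate kinase Pklr (0.34) were within 2-fold. Bpgm, which makes the bisphosphoglycerate that loosens oxygen from hemoglobin in red cells, was at -4.92, the muscle-type phosphofructokinase Pfkm at -1.66 and the muscle-type enolase Eno3 at -1.53. Aldoc (-0.94) and Pgam2 (-0.74) were below 0 by less than 2-fold. Ldhc, not well above background at day 0, was at least 1.31-fold higher. Over all 14161 genes measured on both days in these cells, 24.1% were 2-fold higher and 17.2% 2-fold lower. The counts of this and the next 2 paragraphs stand beside these shares. In LSK cells 15 of the 19 enzymes were measured and the muscle-type mutase Pgam2 alone was 2-fold apart (-1.29), with a median of 0.08. Over all genes there, 1.47% were 2-fold higher and 2.72% 2-fold lower.

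Among 9 other glucose transporters 3 were measured in CD45-negative cells. Slc2a4, the insulin-responsive GLUT4, stood at 0.83 at day 10 and 5.37 at day 0 (-4.54), and Slc2a6 was higher (1.64). Of the enzymes that set the flux, the fructose-bisphosphate regulators Pfkfb3 (1.70) and Pfkfb4 (1.01) were higher, while Pfkfb2 (-3.58), Pfkfb1 (-2.51) and the pyruvate dehydrogenase kinase Pdk4 (-2.57) were lower, together 5 of 10 measured. The lactate exporter Slc16a3 was higher (1.79), and Bsg, the chaperone of lactate transporters (-2.98), Slc16a1 (-2.49) and the pyruvate carrier subunit Mpc2 (-1.01) were lower, of 6 measured. Of the pentose phosphate pathway, Pgls (1.69) and Pgd (1.61) were higher and the other 5 within 2-fold, and the 6 pyruvate dehydrogenase genes measured on both days were within 2-fold. The seventh of that list, the phosphatase Pdp1, was not well above background at day 0 and was at least 2.91-fold higher at day 10.

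In gluconeogenesis and glycogen turnover 5 of 8 genes measured on both days were higher and 3 lower, including the phosphorylases Pygb (2.18) and Pygl (1.93), against the pyruvate carboxylase Pcx (-3.66) and Pck1 (-2.47). Pgm2, Gys1 and Pygm, not well above background at day 0, were at least 2.25-fold, 1.68-fold and 1.09-fold higher at day 10. Of 18 hypoxia-response genes measured, 8 passed 2-fold upwards and 2 downwards (median 0.84), where 24.1% and 17.2% of all genes did. Bhlhe40, a hypoxia-induced repressor, was at 3.11, Egln1, the oxygen sensor that marks HIF for decay, at 2.59, Bnip3l at -2.32 and Mxi1 at -2.26. Hif1a itself stood at 0.77 at day 10 and -1.15 at day 0 (1.92). Of the 6 transcription regulators measured, Myc differed by 0.46, Mlxip, a glucose-sensing factor, by 1.57, and the erythroid factor Klf1 by -4.06. In LSK cells no gene of these 8 lists was 2-fold apart, where 1.47% of all genes were 2-fold higher and 2.72% lower. Values of CD45-negative cells in the last 3 paragraphs that are below 0 by less than 3.25 turn positive with the spike-in scale.

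**Figure D5:**
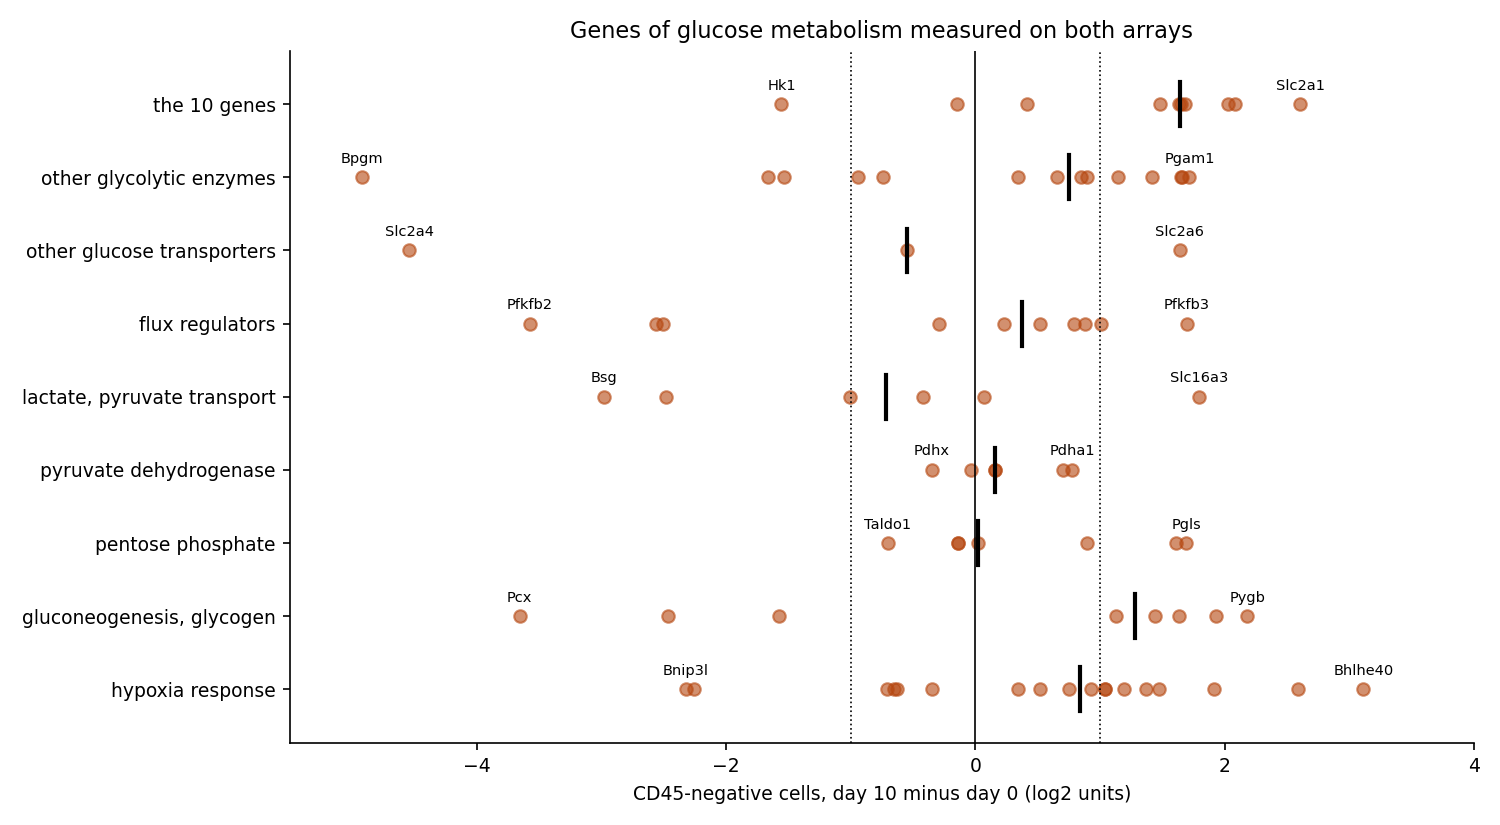
Day 10 minus day 0 in CD45-negative cells (horizontal axis, log2 units) for the genes of each list measured on both arrays, 1 point a gene, with a black bar at the list's median, dotted lines at 2-fold, and the lowest and highest gene of each list named. The 10 genes have a median of 1.64 and the other glycolytic enzymes one of 0.75, and the lists other than pyruvate dehydrogenase and pentose phosphate hold genes beyond 2-fold on both sides (with the spike-in scale every point moves right by 3.25).

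Markers of several cell types differed between the days in the CD45-negative sort, and in such bulk RNA fewer cells of a type and less RNA per cell cannot be told apart. Ptprc, the gene of CD45, stood at 5.58 in the CD45-negative cells at day 10 and 3.10 at day 0, so CD45 RNA was present on both. All 12 red cell markers were well above background on both days, and their summed signal was 528.3 times the 75th percentile at day 10 and 3078 times at day 0. The sums here and in the next paragraph include saturated probes, whose signal is capped by the scanner. A sum can therefore differ between arrays for that reason alone. The 8 measured on both arrays without saturation all passed 2-fold downwards at day 10 (median -4.51). Of 12 T and NK cell markers 11 were above background at day 10 and 6 at day 0, with sums of 191.3 and 7.409. All 6 measured on both days were at least 2-fold higher (median 4.39), and Cd4 was not well above background on any array. Sums of B and plasma cell markers were 457.7 at day 10 and 126.2 at day 0, with 8 of 8 measured 2-fold higher. For neutrophil and monocyte markers the sums were 954.3 at day 10 and 1179 at day 0, but 7 of 9 measured without saturation were 2-fold higher and none 2-fold lower (median 2.09). These sums hold S100a9, at 7.67 and 9.15, which was saturated on at least 1 of the arrays, so their order is not read as a direction. For stromal markers the sums were 15.51 and 143.2, with 10 and 11 of 12 above background, and 8 of 10 measured were 2-fold lower and 1 higher (median -2.998, which the spike-in scale would turn positive). Lepr was well above background at day 0 alone, and Kitl on no array. The part of these cells in the values of the 10 genes was not tested.

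On the LSK arrays the sums of the 10 LSK markers were 140.4 at day 10 and 170.5 at day 0, against 17.98 and 8.494 in CD45-negative cells. Red cell markers summed to 31.94 and 52.66 there and T and NK cell markers to 85.1 and 104.5. The B and plasma cell sums were 82.28 and 252.8, and the neutrophil and monocyte sums 517.2 and 371.2.

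The patterns most like those of the 3 genes with the widest range were sought among 10327 other genes above background on all 4 arrays, by the root mean square distance between levels centred on their own mean. Nearest to Hk2 were Paox, a polyamine oxidase (0.035 log2 units), Vill (0.053) and Parvg (0.072). Nearest to Ldhb were Sgsm2 (0.126), Glis2 (0.151) and Dapp1 (0.174). Jaml, an adhesion molecule of leukocytes, was nearest to Slc2a1 (0.091), before Itpr3 (0.098) and Ighv1-66 (0.109). With 4 arrays many genes can lie this close, and the distances describe likeness only.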

How the data were processed

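RNA of 2 sorted marrow populations at 2 days was labelled with Cy3 and hybridised to 1 array each, 4 arrays in all. Per the file headers, the authors used Agilent Feature Extraction 10.5.1.1 on a design of genomic build mm9. The deposited spot files hold intensity values: a raw mean, a local background, and a processed signal with background and spatial trend removed. They also hold detection, saturation and outlier flags and the control type, which the authors deposited as other values without a unit. The deposited series table holds log2 values, equal to the log2 processed signal minus 1 constant (within 0.001) for at least 99.977% of probes of each array.

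Here control and outlier spots were removed, log2 processed signals averaged per probe, and each array's 75th percentile subtracted. RefSeq accessions renewed the gene names, with a match for 69.3% of gene probes (28136 of 40628). The 20679 noncoding probes were kept apart. A gene counted as measured if its probe was well above background, and not saturated, on each array compared. If it was detected on 1 array only, the fold is a bound against the lowest level detected on the other. With 1 array a group no test was made, and the number of arrays limits the precision. The text names all 10 genes, every other glycolytic enzyme detected, and, of each other list, up to 4 genes with the largest differences among those at least 2-fold apart, plus Myc, Pfkfb4, Cd4, Lepr and Kitl, chosen after their values were seen, and Ptprc. Pdp1, Pgm2, Gys1 and Pygm, detected on 1 CD45-negative array only, fall outside this rule and were named as bounds. The 10 genes and the lists were chosen with earlier results of these data known, and protein sequences, named in the plan, were not used here. The alternatives were normexp background correction (offset 50), quantile and cyclic loess normalization, shifts by the median, by the 75th percentile of probes detected everywhere, by 8 housekeeping genes or by 5 spike-in probes, the deposited table, the mean of a gene's probes, no detection filter, detection on all arrays, and a 1.5-fold threshold. Python 3.11.15, pandas 2.3.3, numpy 2.4.6, R 4.3.3 and limma 3.58.1 were used. The calculation was run on simulated arrays in which few genes changed, which does not test the scale where many genes differ.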

Additional observations from a re-analysis of the deposited data

Results flagged for a closer look

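Among the 10 genes, 2 differed in opposite directions between the days in the 2 populations by more than the spot SD on both sides on the 75th-percentile scale. Hk1 was lower at day 10 in CD45-negative cells (-1.56, or 1.70 with the spike-in scale) and higher in LSK cells (0.24, beside a spot SD of 0.228). That LSK value fell under the spot SD with quantile normalization (0.22), the mean of its probes (0.16) and the spike-in scale (0.05), and 2 of its 5 detected probes were below 0 there. On the 75th-percentile scale, the CD45-negative difference minus the LSK difference was -1.80 for Hk1. Pfkp was higher at day 10 in CD45-negative cells (1.65 at its brightest probe, -0.82 at the other) and lower in LSK cells (-0.88), a difference of 2.53. With 1 array a group, neither difference between the populations was tested.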

How the results depend on the processing

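No paired analysis was possible because each group has 1 array, and for the same reason no replicate could be left out. Over 11 alternatives of the values of single genes, 453 values moved by less than the spot SD, and the others by more. The 453 include values that could not move, so their number is no measure of stability. Both detection settings leave single values unchanged, as does the mean of probes for a gene with 1 probe. The deposited table holds the same signal minus 1 constant for nearly all probes. The sign turned in 16 values. In 11 of these the value had been under 2-fold, and 2 of the 11 ended beyond it with the spike-in scale, Ldhb at 3.11 between the days in CD45-negative cells and Hk1 at -1.01 between the populations at day 10. The other 5 were 2-fold calls that reversed, all with the spike-in scale: Hk1 to 1.70 between the days in CD45-negative cells, to 0.63 between the populations at day 0 and to 1.64 as the CD45-negative minus LSK difference of the days, and Hk2 to -0.36 and Pfkl to -0.46 between the populations at day 10. The median of the 10 genes became 4.89 with the spike-in scale and 2.11 with the median shift between the days in CD45-negative cells, -1.85 and -0.57 between the populations at day 10, 3.37 with the spike-in scale at day 0, and 5.27 and 2.21 as the difference of the day differences (1.83). With the spike-in scale 2 of the 10 genes were 2-fold lower at day 10 in LSK cells and none higher. Over all genes there 667 were then 2-fold lower and 128 higher. These shifts add 1 constant to every gene of a comparison. Under normexp Hk2 was 0.86 between the days in CD45-negative cells, and 6 of the 10 genes were then 2-fold higher. The mean of a gene's probes also gave 6, with Pfkp at 0.41. Over all genes 2860 were 2-fold higher with normexp and 3255 with the mean of probes.

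Over all genes, those 2-fold apart between the days in LSK cells numbered 674, against 220 with normexp, 3409 with no detection filter, 433 with detection on all arrays and 2245 at 1.5-fold. In CD45-negative cells they numbered 5853, against 13486 with the spike-in scale and 15689 with no filter. Between the populations at day 10 they numbered 3745, against 2432, 12601, 7755 and 7400 with normexp, the spike-in scale, no filter and 1.5-fold, and at day 0 5719, against 11594, 10962 and 8651 with the spike-in scale, no filter and 1.5-fold. The share of these genes that was higher was 58.3% between the days in CD45-negative cells (76.9% with the median shift, 47.3% with housekeeping genes, 99% with spike-ins) and 35% in LSK cells (45.6%, 48.9% and 16.1%). Between the populations it was 46.7% at day 10 (33.9% with cyclic loess, 18% with the median shift, 0.928% with spike-ins) and 55.4% at day 0 (42.4% with housekeeping genes, 95.2% with spike-ins). Beyond these constructions the cause was not tested. Dim probes, such as those of Hk2, Slc2a1 and Pfkp on the CD45-negative array of day 0, are measured closest to background.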
